A study of Homo sapiens with 6 samples.

Results

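PDE4A and the other phosphodiesterases that break down cyclic AMP were followed across 6 one-colour Affymetrix arrays of Flp-In T-REx 293 cells. Their probe sets were chosen by gene symbol: every probe set whose only annotated gene was PDE4A, PDE4B, PDE4C, PDE4D, PDE3A, PDE3B, PDE7A, PDE7B, PDE8A or PDE8B. This gave 37 probe sets for 9 of the 10 genes, out of 41091 probe sets with 1 gene for 19775 genes in all. PDE4C had none, because its 4 probe sets were annotated to a second gene as well. PDE4A heads the set because of its difference between TET siRNA and control siRNA in these same arrays, so the values of that contrast are given as a description, without a p-value.

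Flp-In T-REx 293 is a derivative of HEK293, the human embryonic kidney line, and all cells carried a stable, inducible GFP transgene that was kept uninduced. In the TET siRNA group (3 arrays) TET1, TET2 and TET3 had been knocked down at the same time, and in the control group (3 arrays) a non-targeting siRNA pool had been given, with RNA collected at 96 h in both. Clones 1, 2 and 3 each gave 1 array per treatment, so a clone rests on 2 arrays. Nothing states that the arrays of a clone come from more than 1 culture, and p-values measure only the spread between these arrays. Values are MAS5 signals on a linear scale, a summary of the perfect-match and mismatch probes of a probe set, which were scaled to a trimmed mean of 1000 on every array.

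The siRNA targets were lower in all 3 clones. At the brightest probe set of each gene, TET1 was 585 ± 123 against 3222 ± 216 in the control (SD, n = 3 each), TET2 380 ± 85.5 against 801 ± 78.6, and TET3 545 ± 44.8 against 1276 ± 160. The ratio of 3′ to 5′ signal of the array's control probe sets, a measure of RNA integrity, was 1.05 to 1.07 for GAPDH under TET siRNA and 1.04 to 1.08 in the control, and 1.89 to 2.15 and 2.01 to 2.07 for ACTB. Of 8 markers chosen for HEK293 cells 7 lay among the brighter 50% of probe sets, with LHX1 below, as did 0 of 4 blood, 0 of 2 liver, 1 of 3 endothelial (PECAM1) and 2 of 3 fibroblast markers (COL1A1 and LUM).

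Cyclic AMP is made from ATP by adenylyl cyclases under the control of G proteins, and it acts through protein kinase A, the EPAC exchange factors and cyclic nucleotide-gated channels. Phosphodiesterases hydrolyse it and so limit how far and how long the signal spreads. The PDE4, PDE7 and PDE8 families are specific for cyclic AMP, while PDE3 enzymes bind both cyclic nucleotides and are inhibited by cyclic GMP. PDE4 genes use several alternative promoters, which give long and short isoforms, and the long ones are phosphorylated and activated by protein kinase A. The TET enzymes oxidise 5-methylcytosine, which in mammals lies mostly in the dinucleotide CpG, so the start regions of PDE4A are shown here with their CpG.

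RefSeq (GRCh38.p14) listed 5 start windows for PDE4A, each running from 250 bases before to 50 bases after an annotated start, and windows were found for 8 of the 10 genes, PDE3B and PDE7A being the others. Of all 35116 such windows the median held 14 CpG. PDE8A had 3 windows, with 22, 44 and 44. The most in any window was 38 for PDE8B, 34 for PDE4C, 32 for PDE4D, 21 for PDE4B, 5 for PDE7B and 0 for PDE3A. These arrays do not measure methylation, and a link between CpG and the differences was not tested. The first 4 PDE4A windows held 32, 40, 40 and 34 CpG, and the last held 3. Windows with at least 32 CpG made up 18.9% of all windows and windows with at least 40 made up 7.61%. Of the PDE4A windows 3 are printed 5′ to 3′ with every CpG in capitals, namely the one farthest upstream, 1 of the pair with the most CpG and the one with the fewest.
PDE4A chr19:10416523-10416822 (+): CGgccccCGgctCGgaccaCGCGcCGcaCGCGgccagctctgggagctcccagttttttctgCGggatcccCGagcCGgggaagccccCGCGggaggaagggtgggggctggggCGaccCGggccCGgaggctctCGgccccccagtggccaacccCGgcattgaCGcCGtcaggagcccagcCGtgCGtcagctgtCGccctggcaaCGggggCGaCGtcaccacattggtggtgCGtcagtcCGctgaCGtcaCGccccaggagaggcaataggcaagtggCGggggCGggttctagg
PDE4A chr19:10420288-10420587 (+): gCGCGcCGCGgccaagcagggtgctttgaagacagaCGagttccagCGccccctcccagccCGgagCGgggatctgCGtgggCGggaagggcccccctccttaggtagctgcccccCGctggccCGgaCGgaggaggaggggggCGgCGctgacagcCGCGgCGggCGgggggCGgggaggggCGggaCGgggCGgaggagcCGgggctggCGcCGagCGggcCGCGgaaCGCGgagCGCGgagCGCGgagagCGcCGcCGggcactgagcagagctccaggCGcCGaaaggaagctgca
PDE4A chr19:10452682-10452981 (+): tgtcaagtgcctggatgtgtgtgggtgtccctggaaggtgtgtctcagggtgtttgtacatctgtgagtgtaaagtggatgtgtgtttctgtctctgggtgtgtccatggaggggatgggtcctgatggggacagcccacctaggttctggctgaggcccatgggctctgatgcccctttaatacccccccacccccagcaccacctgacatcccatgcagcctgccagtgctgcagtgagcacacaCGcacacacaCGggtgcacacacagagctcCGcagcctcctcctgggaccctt

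The cyclic AMP response element, the site that CREB binds, was searched as TGACGTCA and as its half-site TGACG, on both strands, with each full site also counted as 2 half-sites. The full site stood in 2 of the 32 windows of these genes, the first of PDE4A and the only one of PDE7B, and in 1.85% of all windows. The half-site stood in 4 of the 32, these 2 windows included. In PDE4A the full site spans the annotated start, at bases 248 to 255 of the window, and it is shown here in capitals.
PDE4A chr19:10416759-10416788 (+): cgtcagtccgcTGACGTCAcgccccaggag
The same PDE4A window held 7 half-site matches in all, a number reached by 0.0114% of windows, while the other 4 PDE4A windows held none and 24.6% of all windows held at least 1. The arrays do not tell which PDE4A start was in use, since the annotation assigns its probe sets to the gene alone.

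Of the 37 probe sets, 15 lay among the brighter 50% by mean log2 signal over all 6 arrays and entered the fit, for 7 genes: 1 of 5 for PDE4A, 1 of 3 for PDE4B, 2 of 6 for PDE4D, 3 of 3 for PDE3B, 3 of 6 for PDE7A, 3 of 4 for PDE8A and 2 of 3 for PDE8B. All 4 probe sets of PDE3A and all 3 of PDE7B were dimmer. In limma without a clone term, 0 of the 15 passed an adjusted p of 0.05, against 0.0146% of all 27306 tested probe sets (2 of the 15 had an unadjusted p under 0.05, against 6.61% of all). With the clone as a replicate block 1 passed, the PDE4A probe set, against 1.03% of all, and 4 had an unadjusted p under 0.05, against 14.4% of all. Since the set was chosen on this contrast, nothing is read from these counts.

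PDE4A encodes a cyclic AMP-specific phosphodiesterase expressed widely, in brain among other tissues. Its probe set 204735_at gave signals of 215, 262 and 223 under TET siRNA and 393, 596 and 530 under control siRNA in clones 1, 2 and 3. The 3 TET siRNA arrays lay close together and all below the lowest control array, and the control arrays were spread more widely, with clone 1 lowest. The means were 233 ± 24.9 and 506 ± 104 (SD, n = 3 each), a level 2.15-fold lower with TET siRNA (log2 -1.10, SE 0.20). Of the control level 54.8, 43.9 and 42.0% were left in clones 1, 2 and 3. The difference stayed between -1.27 and -0.97 in 11 alternatives, namely a pseudocount, quantile normalization and each array or clone left out. As the groups do not overlap, leaving out arrays or clones could not change its sign, and nothing is read from the sign.

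The other 4 PDE4A probe sets lay below the brightness filter and showed no common direction. Their signals ran from 4.02 to 93.1, and their log2 differences were 0.47, -1.17, 0.64 and -0.99 in order of brightness. In none of them did the 3 clones share a sign, and in all 4 the groups overlapped. The lower PDE4A level therefore rests on 1 probe set.

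**Figure D1:**
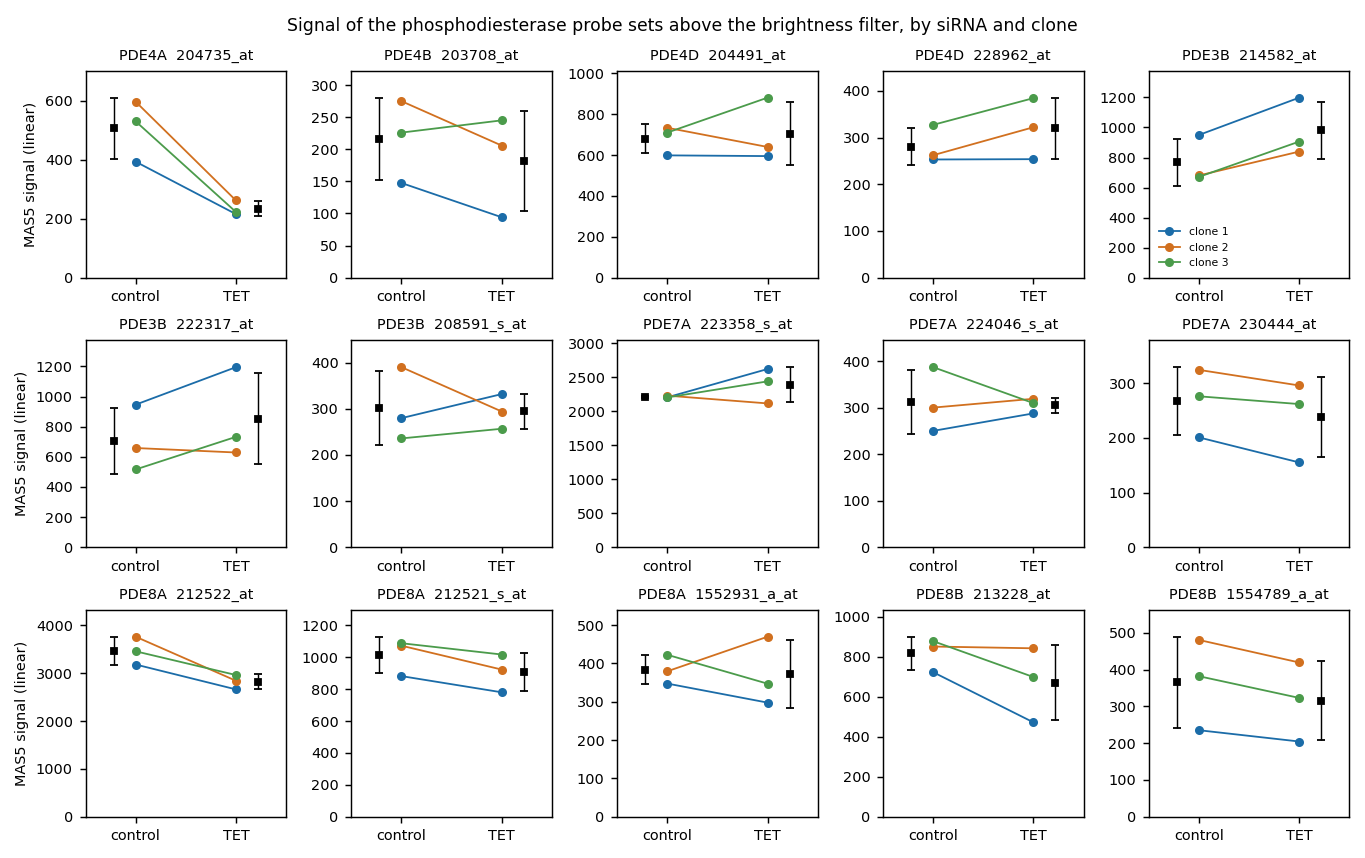
Linear MAS5 signal of each of the 15 brighter phosphodiesterase probe sets under control siRNA and TET siRNA, 1 coloured line per clone, with black squares and bars for the mean ± SD of 3 arrays. The PDE4A panel has all 3 TET siRNA arrays (215 to 262) below all 3 control arrays (393 to 596), and in most other panels the groups overlap.

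The other PDE4 genes did not share that pattern. PDE4B, the PDE4 form prominent in immune cells, gave 94.1, 206 and 245 under TET siRNA and 148, 275 and 226 under control at 203708_at. Clone 1 was lowest in both groups and clone 3 ran against the others, so the groups overlapped (log2 -0.32, SE 0.39). Its dimmer probe set 211302_s_at was lower in 3 of 3 clones by a small amount (log2 -0.25). PDE4D, a further cyclic AMP-specific enzyme, gave 595, 640 and 881 against 598, 733 and 710 at 204491_at (log2 0.03, SE 0.18) and 254, 322 and 385 against 253, 262 and 327 at 228962_at (log2 0.18, SE 0.22). Both pairs of groups overlapped, and in clone 1 the 2 treatments lay within 1% of each other at both probe sets. A dim PDE4D probe set, 1554717_a_at, had all TET siRNA arrays above all control arrays, at 98.5, 90.8 and 110 against 70.6, 65.0 and 70.5, below the filter.

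Among the PDE3 genes, whose enzymes are expressed in heart, vessel and fat tissue, PDE3A was dim at all 4 probe sets (3.49 to 115). PDE3B had a higher level in 3 of 3 clones at its brightest probe set, 214582_at, with 1199, 840 and 906 under TET siRNA against 950, 681 and 671 (log2 0.36, SE 0.19). The groups overlapped because clone 1 was high in both, while within clones the differences were alike at 0.34, 0.30 and 0.43. At 222317_at the values were 1195, 629 and 732 against 946, 658 and 516 (log2 0.26, SE 0.28), and clone 2 went the other way. At 208591_s_at, a type of probe set that several transcripts can share, they were 332, 294 and 257 against 280, 390 and 236, with no overall difference (log2 -0.01, SE 0.23).

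PDE7A encodes an enzyme of high affinity for cyclic AMP that is insensitive to the PDE4 inhibitor rolipram. At its brightest probe set, 223358_s_at, the controls were nearly equal at 2204, 2229 and 2203, and the TET siRNA arrays scattered around them at 2620, 2114 and 2439 (log2 0.11, SE 0.11). The remaining brighter ones had log2 differences of -0.01 (224046_s_at) and -0.19 (230444_at), the latter lower in 3 of 3 clones with overlapping groups. PDE7B was dim at all 3 probe sets, with 51.1, 127 and 13.4 against 122, 142 and 126 at the brightest, lower in 3 of 3 clones by very unequal amounts.

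PDE8A and PDE8B encode high-affinity enzymes that the general inhibitor IBMX does not block, PDE8B being known from adrenal and thyroid tissue. PDE8A at 212522_at gave 2663, 2844 and 2963 under TET siRNA and 3183, 3764 and 3459 under control. All TET siRNA arrays lay below all control arrays, the only other brighter probe set of the 15 besides that of PDE4A for which the groups did not overlap. The difference was small (log2 -0.30, SE 0.10, 83.7, 75.5 and 85.7% of control in clones 1, 2 and 3). The second probe set, 212521_s_at, was lower in 3 of 3 clones as well (780, 923 and 1017 against 882, 1072 and 1088, log2 -0.16, SE 0.15), while 1552931_a_at was mixed, with clone 2 higher (log2 -0.07, SE 0.21).

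PDE8B was lower in 3 of 3 clones at each of its 3 probe sets, with overlapping groups at all of them. At 213228_at the signals were 472, 842 and 699 against 723, 851 and 878 (log2 -0.32, SE 0.21), and clone 2 hardly differed at 99.0% of control. At 1554789_a_at they were 205, 420 and 323 against 235, 481 and 382 (log2 -0.21, SE 0.33), which left 87.0, 87.3 and 84.6% of control, so the clones differed far more from each other than the treatments did. At the dim 235115_at the log2 difference was -0.40.

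Over the 15 brighter probe sets 10 were lower and 5 higher, and the median log2 difference was -0.07, beside 0.02 for all 27306 tested. By clone the median of the 15 was -0.18, -0.13 and -0.08, beside 0.03, 0.02 and 0.01 for all tested. The 3 clones shared a sign at 8 of the 15, against 36.2% of all tested, and the groups did not overlap at 2 of the 15 (13.3%), both lower, against 12.7% of all (5.50% lower and 7.21% higher). Nothing is read from these shares either. Without both arrays of clone 1, 2 or 3, 9 were lower and 6 higher in each case, with medians of -0.12, -0.14 and -0.10. With single arrays left out, which unbalances the clones, the number lower ran from 6 (median 0.04, without the TET siRNA array of clone 1) to 11, and 8 of the 15 changed sign in at least 1 of the 11 alternatives.

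**Figure D2:**
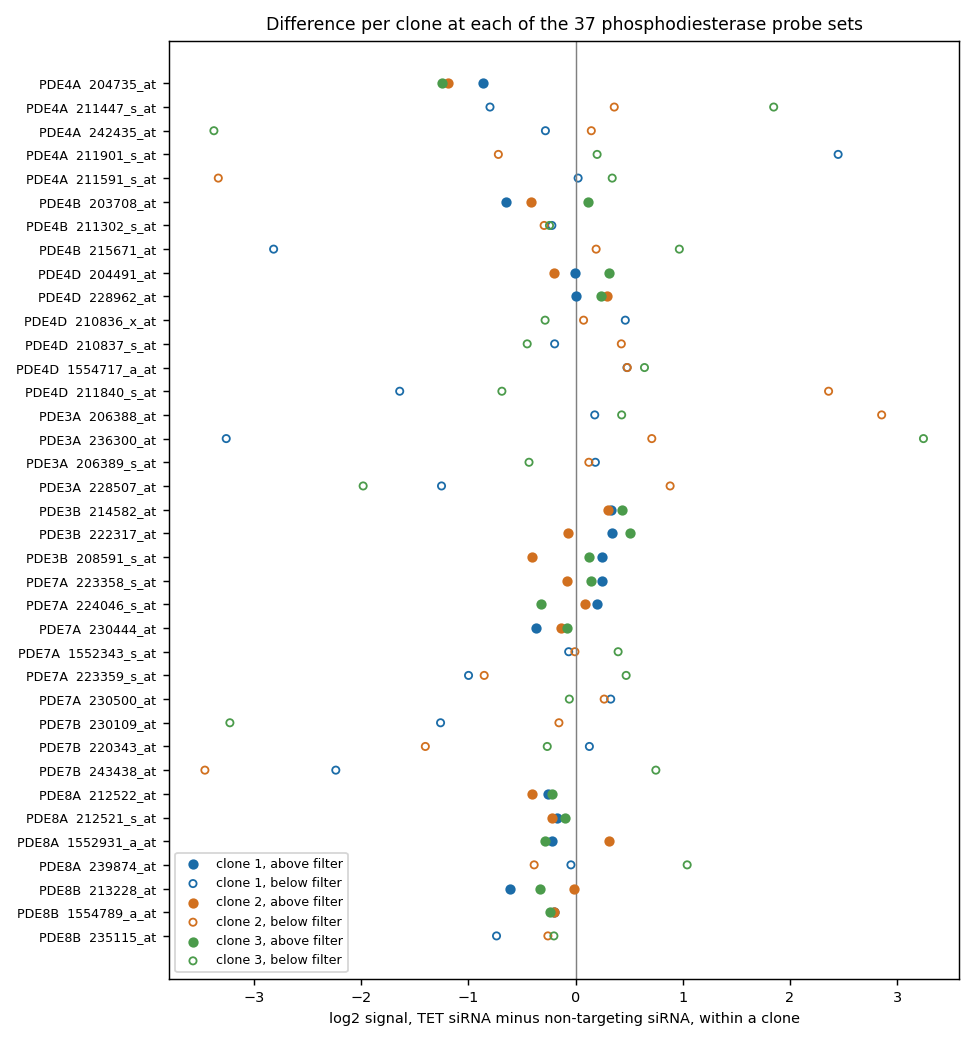
Log2 signal under TET siRNA minus control siRNA within each clone, for all 37 probe sets of the cyclic AMP phosphodiesterases, with filled points above and open points below the brightness filter. The filled PDE4A points lie at -0.87 to -1.25, the other filled points within 0.65 of 0, and the open points reach from -3.46 to 3.25.

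The 22 dim probe sets had signals of 2.08 to 155, and their differences varied greatly between clones. The SD of the 3 clone differences had a median of 1.07 on the log2 scale there and of 0.21 among the 15 brighter ones. At 5 of the 22 the 3 clones shared a sign. No level of PDE3A or PDE7B, and no difference at them, can be read from these arrays with useful precision.

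The clones themselves offered a comparison that the choice of these genes did not use, since each clone has both treatments. In a limma F test over the 3 clones with the treatment in the fit, 2 of the 15 brighter probe sets passed an adjusted p of 0.05 (13.3%), against 8.27% of all tested probe sets, so the share here was near the background. They were 222317_at of PDE3B and 1554789_a_at of PDE8B. PDE3B had geometric mean signals of 1063, 643 and 615 in clones 1, 2 and 3 at that probe set, a 1.69-fold higher level in clone 1 than the mean of the others (limma adjusted p = 0.0210). The brightest PDE3B probe set had the same order of clone 1 over the others, at 1067, 756 and 780 (limma adjusted p = 0.0660), and 208591_s_at did not (305, 339 and 246, adjusted p = 0.444).

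PDE8B showed the opposite, with 219, 449 and 351 in clones 1, 2 and 3 at 1554789_a_at, a level 1.81-fold lower in clone 1 than the mean of the others (limma adjusted p = 0.0246). Its brightest probe set followed at 584, 847 and 783, short of the threshold (limma adjusted p = 0.128). Clone 1 was also low for PDE4B, with 118, 238 and 235 at 203708_at (limma adjusted p = 0.0816), and for PDE7A at 230444_at, with 176, 310 and 269 (adjusted p = 0.117). For PDE4A the clones had 291, 395 and 343, a range that the spread between arrays covers (limma adjusted p = 0.398), and the PDE8A, PDE4D and remaining PDE7A probe sets had adjusted p-values of 0.230 to 0.668. Clone 1 was lowest at 11 of the 15 and highest at 3, beside 41.4 and 40.1% of all tested probe sets.

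Neither call held without the TET siRNA array or without the control array of clone 1, without both arrays of clone 1, without the treatment in the fit, without the filter on dim probe sets, or with plain empirical Bayes moderation, each of which left 0 of them. The PDE8B probe set was also not called without both arrays of clone 2, and it lay outside the upper 30% by signal and so was not tested there. As every clone is a single line, a difference between clones describes these lines alone.

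**Figure D3:**
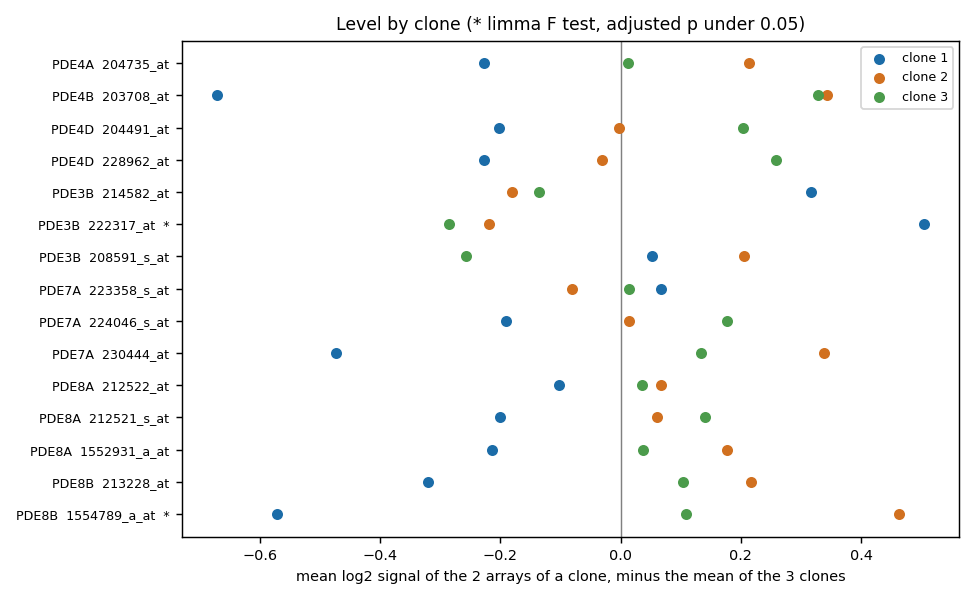
Mean log2 signal of the 2 arrays of each clone, centred on the mean of the 3 clones, for the 15 brighter probe sets, with a star where the limma F test passed an adjusted p of 0.05. Clone 1 is lowest at 11 of the 15 and highest at 3, among them the starred PDE3B probe set.

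Over the 6 arrays, the genes outside this set most like PDE4A by the Pearson correlation of log2 signal at their brightest probe sets, out of 12311 compared, were RAP1GDS1 (r = 0.999), a guanine nucleotide exchange factor, ZBTB44 (0.997), AATF (0.994), RACGAP1 (0.993) and PWWP3A (0.992). All 5 were lower in 3 of 3 clones, by far less than PDE4A: ZBTB44 gave 4522, 4726 and 4418 against 5482, 6389 and 6230 (log2 -0.40), and the others had log2 differences of -0.12 to -0.22. In all 79 genes had r above 0.95. As the 5 were picked for likeness to PDE4A, whose groups do not overlap, their direction follows from that choice. Nothing is read from it. With 6 points that share the treatment groups, such values describe these arrays only. Within the set, PDE8A at 212522_at came closest to PDE4A (r = 0.95), PDE8B at 213228_at and PDE8A at 212521_s_at followed with 0.67 and 0.65, and PDE3B at 214582_at ran against it (r = -0.81). These correlations include the difference between treatments, on which the set was chosen, so nothing further is read from them.

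No gene of the wider cyclic AMP pathway passed the test. For it 10 lists were drawn up, with 72 measured genes between them. In limma 0 of the 72 passed an adjusted p of 0.05 in either direction, both without a clone term and with the replicate block. Among all 12318 genes at their brightest tested probe set 2 and 162 passed, and among all tested probe sets 0.0146 and 1.03%. The 0 is near this background and is not read as a result about the pathway. Of the 72, 5 and 10 had an unadjusted p under 0.05, against 6.61 and 14.4% of all tested probe sets. In direction, 35 were higher and 37 lower with a median of -0.00, beside 0.01 for all 12318 genes.

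Among other phosphodiesterases 2 of 6 hydrolysing both cyclic nucleotides were measured, PDE10A (log2 -0.08) and PDE11A (-0.24), both lower in 3 of 3 clones. Their other tested probe sets were at -0.43 for PDE10A, with clone 2 slightly higher, and at -0.36 for PDE11A, lower in 3 of 3 clones. Of those for cyclic GMP 3 of 8 were measured, with PDE5A at 0.32 (its other tested probe sets ran from -0.13 to 0.40) and PDE6D, a prenyl-binding subunit, at -0.03 (0.11 at both others). Of the enzymes that make cyclic AMP, 6 of the 12 listed adenylyl cyclases and associated proteins were measured (median 0.08), ADCY1 at -0.19 (0.07 at its other tested probe set) and CAP2, a cyclase-associated actin regulator, at 0.15. All 7 G-protein alpha subunits were measured (median -0.01), with GNAL, a stimulatory form, at -0.12 (0.22, 0.07 and -0.01 at the others) and GNAO1 at -0.76. GNAO1 had 71.8, 236 and 220 against 259, 211 and 332, so clone 2 ran the other way.

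Downstream, 9 of 11 protein kinase A subunits and inhibitors were measured (median 0.02). PRKACB, a catalytic subunit, had all TET siRNA arrays above all controls, at 3756, 4344 and 4376 against 3107, 3262 and 3476 (log2 0.34, SE 0.10). It did not pass (limma adjusted p = 0.566, and 0.0551 with the replicate block), and its 2 less bright probe sets differed by 0.34 and -0.46. PKIA, an inhibitor of the kinase, was at 0.28 and higher in 3 of 3 clones. The A-kinase anchoring proteins, which hold the kinase near its substrates and often bind PDE4, had a median of 0.00 over 12 of 19, with EZR at -0.20 and AKAP10 at -0.20. The AKAP10 probe sets disagreed, since the others differed by -0.22, 0.38 and 0.30. Other effectors had a median of 0.02 over 7 of 18, with RAPGEF2 at -0.15 and the channel HCN3 at 0.45. The EPAC genes RAPGEF3 and RAPGEF4 were not among the 7. The HCN3 groups overlapped (SE 0.27), and clone 2 ran the other way, with log2 differences of 0.60, -0.09 and 0.84 in clones 1, 2 and 3.

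Transcripts that cyclic AMP induces did not move in 1 direction. The CREB family and coactivators had a median of 0.01 over 9 of 11, with 5 higher and 4 lower. The immediate transcripts had a median of -0.08 over 12 of 17, with 4 higher and 8 lower, from -0.435 to 0.341. SIK1, a kinase induced through CREB that restrains its coactivators, had 774, 891 and 741 under TET siRNA against 995, 1214 and 1031, with no overlap (log2 -0.43, SE 0.14, limma adjusted p = 0.628, and 0.0964 with the replicate block). EGR1, an immediate early factor, went the other way with 4906, 4278 and 4669 against 3744, 3723 and 3458 (log2 0.34, SE 0.09, limma adjusted p = 0.473, and 0.0611 with the block), and its other probe sets differed by 0.28 and 0.45. SIK2, a kinase related to SIK1 and listed with the CREB family, was at 0.27 and higher in 3 of 3 clones. Proteins that bind or regulate PDE4 had the highest list median, 0.16 over 10 of 17, 6 of them higher, with ARRB1, the arrestin that recruits PDE4 to receptors, at 0.31 and the ubiquitin ligase MDM2 at 0.21. The probe sets of both disagreed, since the others of ARRB1 ran from -0.22 to 0.42 and those of MDM2 from -0.55 to 0.56.

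**Figure D4:**
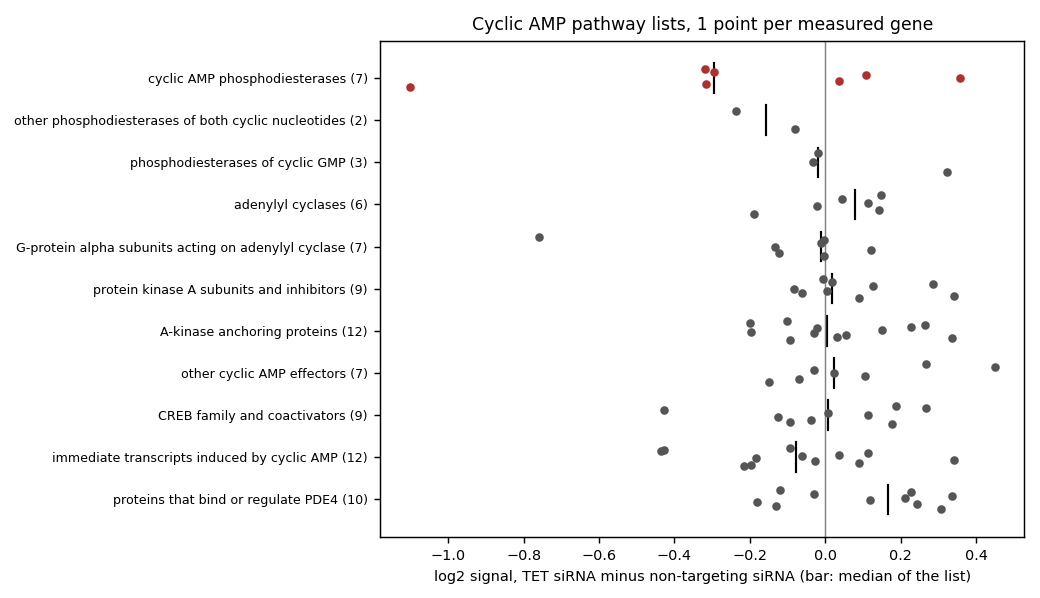
Log2 signal under TET siRNA minus control siRNA at the brightest probe set of each measured gene, for the cyclic AMP phosphodiesterases (red, 7 genes) and 10 pathway lists (grey), with a bar at each median and the number of genes in brackets. PDE4A lies at -1.10, and the lowest pathway gene is GNAO1 at -0.76. PDE4A heads the set because of its difference in these same arrays, so its place in the plot is no result.

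In the test between clones, 9 of the 72 pathway genes passed at their brightest tested probe set. Of all 12318 genes, taken in the same way, 1279 passed, so the share in the pathway was near the background. Of all tested probe sets 8.27% passed. Clone 1 was low for 8 of them, among them GNAZ, an inhibitory G-protein alpha subunit, with geometric means of 465, 1499 and 1224 in clones 1, 2 and 3 (limma adjusted p = 0.000323), and PDE9A, a cyclic GMP-specific phosphodiesterase, with 755, 1776 and 1642 (limma adjusted p = 0.00906). How often clone 1 was low among all genes that passed was not counted, so nothing is read from the 8. These examples were picked after their values were seen. For both genes the difference between treatments was near 0, at log2 -0.00 for GNAZ and -0.02 for PDE9A.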

How the data were processed

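Biotin-labelled cRNA from total RNA was hybridised to 1 array per sample, per the labels. The deposited values are linear intensities. Per the submitters' processing notes they come from MAS5, with no version stated. The 2% trimmed mean was 1000 on each of the 6 arrays. Of 54675 probe sets 62 controls were set aside. Platform annotation gave 1 gene for 41091 of the others, several for 1801 and none for 11721, and 41037 were found by Entrez ID in RefSeq (GRCh38.p14).

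Signals were taken to log2 (no pseudocount), and probe sets in the upper 50% by mean over the arrays were tested, 27306 in all (geometric mean signal of at least 117). The fits used limma 3.58.1 (R 4.3.3) with trended, robust empirical Bayes and Benjamini-Hochberg adjustment over all tested probe sets: TET siRNA against control without a clone term, and an F test over clones with the treatment. SE comes from the fit and ± is an SD. Named were all probe sets of the 10 genes, the 5 genes most like PDE4A, and in each list up to 3 passing genes or else the 2 of smallest p, each at its brightest tested probe set. Genes and lists were chosen with earlier results of these data known. Alternatives covered the clone block, the filter, a pseudocount of 36.1, quantile normalization, the moderation, and arrays or clones left out. Plots used matplotlib 3.10.9.

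The replicate number pairs arrays across groups, since the labels give it as the clone. After the group means were removed, the arrays of clones 1, 2 and 3 correlated at 0.493, 0.234 and 0.236. Arrays of different clones correlated at -0.372 to 0.219. The highest of these, TET siRNA of clone 2 with control of clone 3, came close to the values within clones 2 and 3. Precision is limited by having 6 arrays. No scan date was used here.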

Additional observations from a re-analysis of the deposited data

How the results depend on the processing

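Each alternative changed 1 choice, except those combined with the replicate block, which were added after seeing the data, as was the median over all 37 probe sets. For TET siRNA against control, 4 of 27306 probe sets passed in limma, none of them a cyclic AMP phosphodiesterase. The count was 282 with the replicate block, 14 in the upper 30% by signal (where PDE4A and the PDE8B probe set 1554789_a_at were too dim to be tested) and 1 with plain empirical Bayes, and 0 to 121 with arrays or clones left out. Of the phosphodiesterases 1 passed with the replicate block (PDE4A), and 0 to 1 with arrays or clones left out. PDE4A passed without both arrays of clone 1, in the fit without the clone. With the replicate block the total was 108, 684 and 63 without replicate 1, 2 and 3, and PDE4A passed in the first 2 of these (1 each) and not without clone 3. With the replicate block the total was 0 under plain empirical Bayes and 70 without the filter, and PDE4A passed in neither. As PDE4A heads the set because of this contrast, nothing is read from the settings in which it passed.

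Between clones 2259 passed, 2 of them phosphodiesterases. Without the filter the numbers were 847 and 0, without the treatment term 710 and 0, and with plain empirical Bayes 1 and 0. In the upper 30%, where only part of the 15 was tested, they were 2238 and 1. With arrays or clones left out they were 29 to 4600 and 0 to 4, with the lowest total without clone 1 and the highest without the control array of clone 2. The median difference over the 15 probe sets, -0.07, was -0.29 over the brightest probe set of each of the 7 genes and -0.17 over gene means. The pseudocount and quantile normalization moved no count by over 1.5 times. Of 165 values of single probe sets under alternatives, 20 moved by over 1 SD of the clone differences. The causes were not tested.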
